A study of Mus musculus with 6 samples.

Results

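The genes examined here encode the proteins of the cytosolic ribosome, measured in mouse colorectal cancer cells whose labels give an IRF2 construct and in the same cells with GFP. A gene was taken as a member when its symbol in the array annotation was Rpl or Rps followed by a digit, or Rplp0, Rplp1, Rplp2 or Rpsa. Rps6k kinases, names with -ps and probe sets that list several symbols were left out, and the brightest remaining probe set stood for the gene. The rule found 50 members among 18193 named genes. Of these, 43 encode proteins of the ribosome itself (21 of the small subunit and 22 of the large subunit), 6 are paralogues of such genes by name (Rpl22l1, Rpl7l1, Rps27l, Rpl39l, Rpl3l and Rps4l), and Rps19bp1 matched by its name alone. Another 27 of the 79 classical ribosomal protein genes had only probe sets that list several symbols, and were not named here.

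The arrays labelled IRF2 (n = 3) hold RNA of iKAP primary cultured cells of the line #3346 that stably express the IRF2 open reading frame from a pLenti6.3 construct, and the GFP control arrays (n = 3) hold RNA of that line with GFP in the same vector. iKAP is an engineered mouse model of colorectal cancer; both groups share its alleles, and all arrays come from that single line. Both were grown in a medium whose additive was free of tetracycline. Total RNA was biotin-labelled and hybridised to Affymetrix arrays, and the values are intensities on a linear scale. No label says whether the replicates were separate cultures; the p-values therefore cover array-to-array spread alone, part or all of which could be technical.

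The ribosome is built from rRNA and ribosomal proteins, and nearly all of these proteins are needed in equal number. Ribosomal protein mRNAs are among the most abundant of growing cells. They begin with a tract of pyrimidines, the 5′ terminal oligopyrimidine (TOP) tract, through which the TOR kinase and the protein LARP1 control their translation. Free RPL5 and RPL11 proteins bind MDM2 and so stabilise p53.

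The Irf2 probe set was lower, not higher, on the arrays labelled IRF2. Its intensity was 36.3 ± 0.934 there, against 62.6 ± 2.53 with GFP (SD over 3 arrays each), or -0.79 on the log2 scale (SE 0.06, adjusted p = 1.73e-07 by limma). The sources used here do not give whether it can see the expressed open reading frame, and every direction below is that of the labels. Array medians ran from 18.3 to 18.7 on the arrays labelled IRF2 and from 18.2 to 18.5 on the GFP control arrays. The 3 probe sets for 18S rRNA overlapped between the groups at the 3′ end and in the middle, but read 2099 to 2254 and 1798 to 2034 at the 5′ end. The 3′ to 5′ ratio of beta-actin lay between 0.996 and 1.02 on all 6 arrays, while that of the transferrin receptor was 3.81 to 4.47 on the arrays labelled IRF2 and 3.61 to 3.78 on the GFP control arrays. Their part in the results was not tested. Of 10 epithelial markers, 7 were above the intensity filter, and Cdx1, Krt20 and Vil1 were not. Of 8 immune markers, 7 had a named probe set and 4 were above the filter; Ptprc, Itgam and Adgre1 were not. Summed over the list, epithelial markers read 16030 to 16165 on the arrays labelled IRF2 and 14535 to 14686 on the GFP control arrays (2 rose, 3 fell), immune markers 214 to 228 and 196 to 216 (1 rose), fibroblast markers 242 to 256 and 221 to 224 (2 rose, 1 fell), and endothelial markers 85.4 to 96.5 and 92.0 to 103 (1 fell). The part of these differences in the results was not tested.

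Most ribosomal protein genes differed little between the groups. The test was limma on log2 intensities over all genes above a filter set at the 40th percentile of mean intensity, with Benjamini-Hochberg adjustment, and a gene was called at an adjusted p under 0.05. Of the 50 members, 46 passed the filter. Among these, 7 fell, 1 rose and 38 did not pass the test. Over all 12795 genes tested, 19.8% fell and 16.5% rose, or 36.3% in either direction. The share of ribosomal protein genes that fell (15.2%) was near that of all genes, and only 1 of 46 rose. The median log2 fold change of the members was -0.017, against -0.0007 over all genes, and their median size of change regardless of sign was 0.028, against 0.093.

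These values are those of each gene's brightest probe set. With the mean of a gene's probe sets in its place, 13 of 46 members fell and 2 rose, where 16.8% of all genes fell and 14.2% rose.

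In the brightest probe sets the 95% interval of the log2 fold change lay wholly between -0.1 and 0.1 for 35 of the 46 members, among them 32 of the 38 that did not pass the test. Not all of these 35 genes have another probe set. In 8 of them another probe set, called on its own, fell by more than 0.1, and in 1, Rpl22, another rose by more. Among all 5902 genes with several probe sets tested, another than the brightest fell by any amount in 19.9% and rose in 14.9%. The arrays of the groups did not overlap for 24 members, 17 lower and 7 higher on the arrays labelled IRF2, beside 46.2% of all genes tested. The 4 members under the filter, Rps16, Rpl3l, Rpl39l and Rps4l, read between 4.84 and 6.59 in the mean of the arrays labelled IRF2 and between 5.00 and 6.38 in that of the GFP control arrays, and were not tested. Each has 1 single-symbol probe set, and its low reading does not show whether the transcript was absent, as for Rps16, a protein of the ribosome itself. Rpl3l is known as a muscle paralogue of Rpl3, and Rpl39l as a paralogue used in male germ cells.

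**Figure D1:**
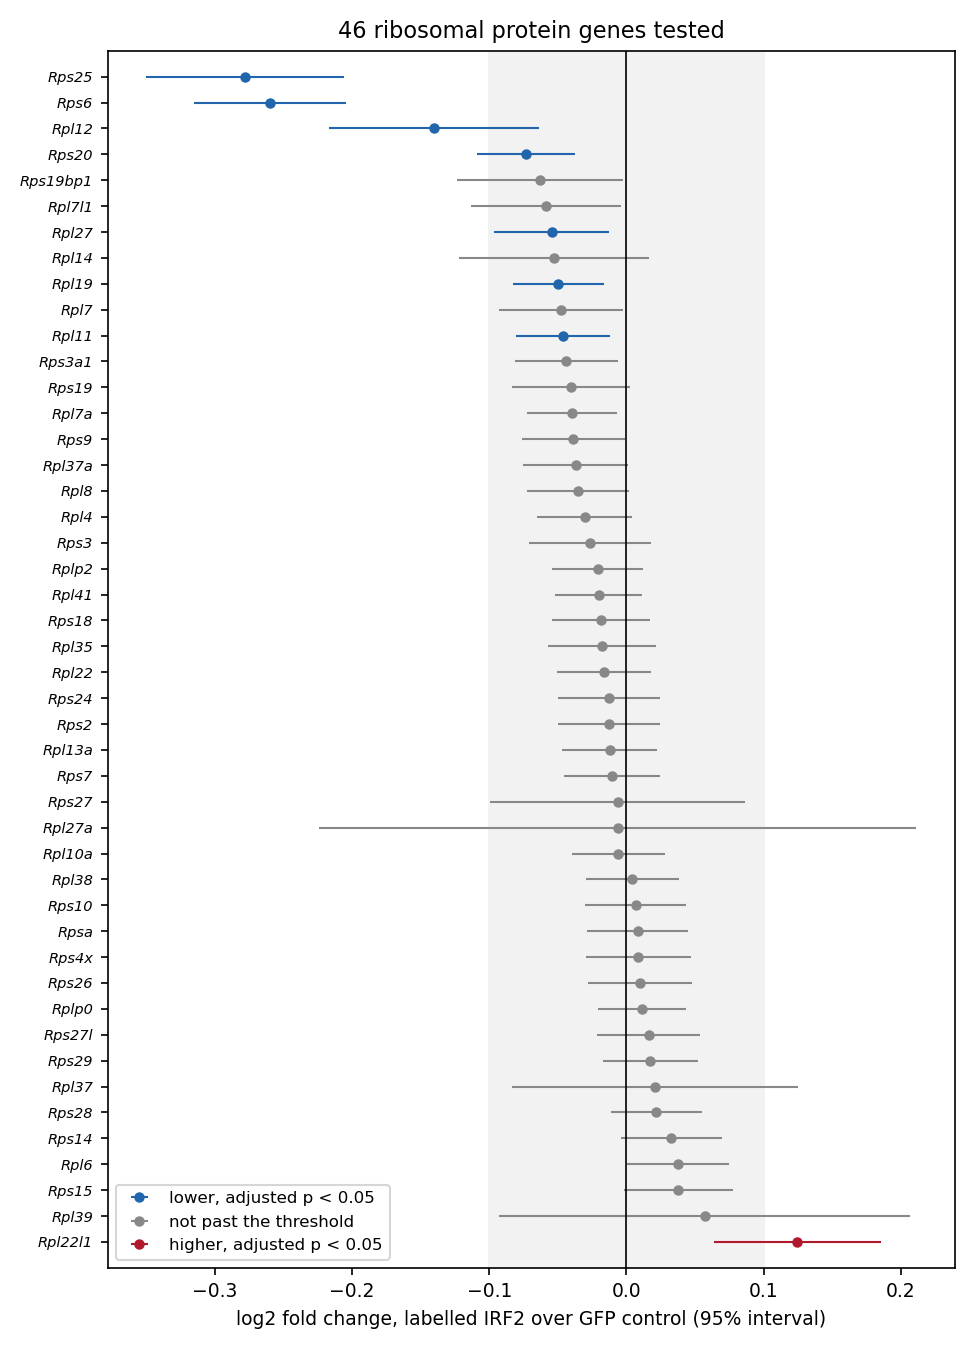
Log2 fold change, labelled IRF2 over GFP control, of the 46 ribosomal protein genes tested, with 95% intervals; blue points fell, the red point rose and grey points did not pass the test. The shaded band spans -0.1 to 0.1 and holds 35 of the 46 intervals, each from the gene's brightest probe set, whole; Rps25 and Rps6 lie farthest to the left.

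Among small subunit genes, 3 of 20 fell and none rose, beside 19.8% and 16.5% of all genes tested. Their median log2 fold change was -0.012. The largest fall was in Rps25, a protein of the head of the subunit known for its role in initiation at internal ribosome entry sites. Its probe set read 421, 400 and 400 on the arrays labelled IRF2, against 511, 475 and 494 on the GFP control arrays. All 3 arrays labelled IRF2 were below all GFP control arrays, and the log2 fold change was -0.28 (SE 0.03, limma adjusted p = 1.08e-05), a ratio of 0.825. Rps25 has 1 single-symbol probe set, at a mean intensity of 448. Between 100 and 1000, 10 of 18 member probe sets fell (median -0.12), beside 26.3% of all probe sets there. Whether its rank among the members reflects this range was not tested.

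Rps6, whose protein is the classical substrate of the S6 kinases, fell almost as much. It read 647, 664 and 660 on the arrays labelled IRF2 and 805, 777 and 778 on the GFP control arrays. The groups were separated by more than the range within either, and the log2 fold change was -0.26 (SE 0.03, limma adjusted p = 1.44e-06). Its other probe set, at an intensity of 11.8, differed by 0.0048 and did not pass the test; with the mean of both the gene fell by 0.13 (adjusted p = 0.045).

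Rps20, another head protein, was the third. It read 8427, 8428 and 8291 on the arrays labelled IRF2 and 8692, 8903 and 8857 on the GFP control arrays, which did not overlap. The log2 fold change was -0.073 (SE 0.017, limma adjusted p = 0.00272), and the call was lost without the intensity trend (adjusted p = 0.107). Of the 9 head proteins measured, Rps25 and Rps20 were those that fell (22.2%), near the 19.8% of all genes tested.

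The remaining 17 small subunit genes ran from -0.044 for Rps3a1 to 0.038 for Rps15. Rps18, often used as a reference gene, read 8321, 8284 and 8112 on the arrays labelled IRF2 and 8340, 8280 and 8413 on the GFP control arrays. The groups overlapped, and its 95% interval ran from -0.054 to 0.017 (adjusted p = 0.446). Rps19, the gene most often mutated in Diamond-Blackfan anaemia in humans, differed by -0.040 (adjusted p = 0.136). Rpsa, which encodes the protein also known as the laminin receptor, differed by 0.0081 (adjusted p = 0.767).

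Among large subunit genes, 4 of 22 fell and none rose, with a median of -0.021, beside 19.8% and 16.5% of all genes tested that fell and rose. Rpl12, which sits at the base of the stalk where elongation factors bind, fell the most. It read 262, 257 and 255 on the arrays labelled IRF2 and 290, 273 and 291 on the GFP control arrays. The groups did not overlap, and the log2 fold change was -0.14 (SE 0.04, limma adjusted p = 0.00588). Its only single-symbol probe set, at a mean intensity of 271, lies in the same range as that of Rps25. So does the probe set that stood for Rps6, at 719.

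Its measured neighbours in the stalk did not pass the test, and Rplp1 shares its probe set with another symbol and was not measured. Rplp0, the stalk protein that anchors the others and another usual reference gene, read 10485, 10551 and 10459 on the arrays labelled IRF2 and 10422, 10431 and 10399 on the GFP control arrays. The groups did not overlap, but the log2 fold change was only 0.011 (95% interval -0.021 to 0.043, adjusted p = 0.619). Rplp2 differed by -0.021 (adjusted p = 0.332).

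The other falls among large subunit genes were small. Rpl27 differed by -0.055 (SE 0.02, adjusted p = 0.0398), Rpl19, at the rim of the peptide exit tunnel, by -0.050 (SE 0.015, adjusted p = 0.0195) and Rpl11 by -0.046 (SE 0.016, adjusted p = 0.0338). Rpl11 read 7225, 7227 and 7190 on the arrays labelled IRF2 and 7375, 7481 and 7492 on the GFP control arrays, without overlap. These 3 calls were lost when arrays were scaled to equal 2% trimmed means (adjusted p = 0.101, 0.0761 and 0.117), under quantile normalization (0.0662, 0.131 and 0.229) and without the replicate 3 GFP control array (0.107, 0.0819 and 0.136). Rpl11 also lost its call with the replicate number as a block (adjusted p = 0.0614). Without any single array labelled IRF2 neither Rpl27 (adjusted p = 0.0814 to 0.0968) nor Rpl11 (0.0617 to 0.091) was called. Rpl27 was also lost without the replicate 1 GFP control array (0.171) and Rpl11 without replicate 2 (0.0711). Rps25, Rps6 and Rpl12 kept theirs in all 18 alternatives run. Rps25 and Rpl12 have 1 single-symbol probe set each, so alternatives in the choice of probe set could not move their fold changes. For Rps6, among these, only the mean of probe sets could.

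Of the large subunit genes that did not pass, Rpl13a, part of a complex that silences inflammatory mRNAs after interferon gamma in human monocytes, differed by -0.012 (95% interval -0.047 to 0.022, adjusted p = 0.618). Under quantile normalization it was 0.020, on the other side of 0. Rpl38, known in mice for its role in translating Hox mRNAs, differed by 0.0043 (adjusted p = 0.868). The least precise member was Rpl27a, with a 95% interval from -0.22 to 0.21; its arrays read 514, 558 and 435 on the arrays labelled IRF2 and 405, 569 and 548 on the GFP control arrays, with full overlap.

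The 8 brightest members, Rpl41, Rplp0, Rps2, Rps29, Rpl7a, Rps10, Rps28 and Rpl38, included none that passed the test. Of all genes tested 36.3% passed it, and of the 56 genes over 5000 that are not members, 51.8%. Among the 8, Rpl7a came nearest, at 9437, 9517 and 9564 on the arrays labelled IRF2 and 9799, 9703 and 9812 on the GFP control arrays. These did not overlap, and its log2 fold change was -0.040 (95% interval -0.073 to -0.0067, adjusted p = 0.0581). Rpl7 differed by -0.048 (adjusted p = 0.0965), with overlapping groups, and Rpl39 by 0.057 (95% interval -0.093 to 0.21, adjusted p = 0.587).

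The only rise was in a paralogue. Rpl22l1 encodes a close relative of RPL22, and the RPL22 protein is known to repress the Rpl22l1 mRNA in mice. Rpl22l1 read 1537, 1542 and 1582 on the arrays labelled IRF2 and 1383, 1499 and 1396 on the GFP control arrays. The groups did not overlap, and the log2 fold change was 0.12 (SE 0.03, adjusted p = 0.00287 by limma); without the intensity trend the adjusted p was 0.0606. Rpl22 itself differed by -0.017 (adjusted p = 0.471) in its brightest probe set. Rps27l, a p53-inducible relative of Rps27, differed by 0.016 (95% interval -0.022 to 0.054, adjusted p = 0.538), and Rps27 by -0.0065 (adjusted p = 0.932). Rpl7l1 differed by -0.059 (adjusted p = 0.0884) and Rps19bp1, which encodes a binding partner of RPS19, by -0.063 (adjusted p = 0.0989).

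**Figure D2:**
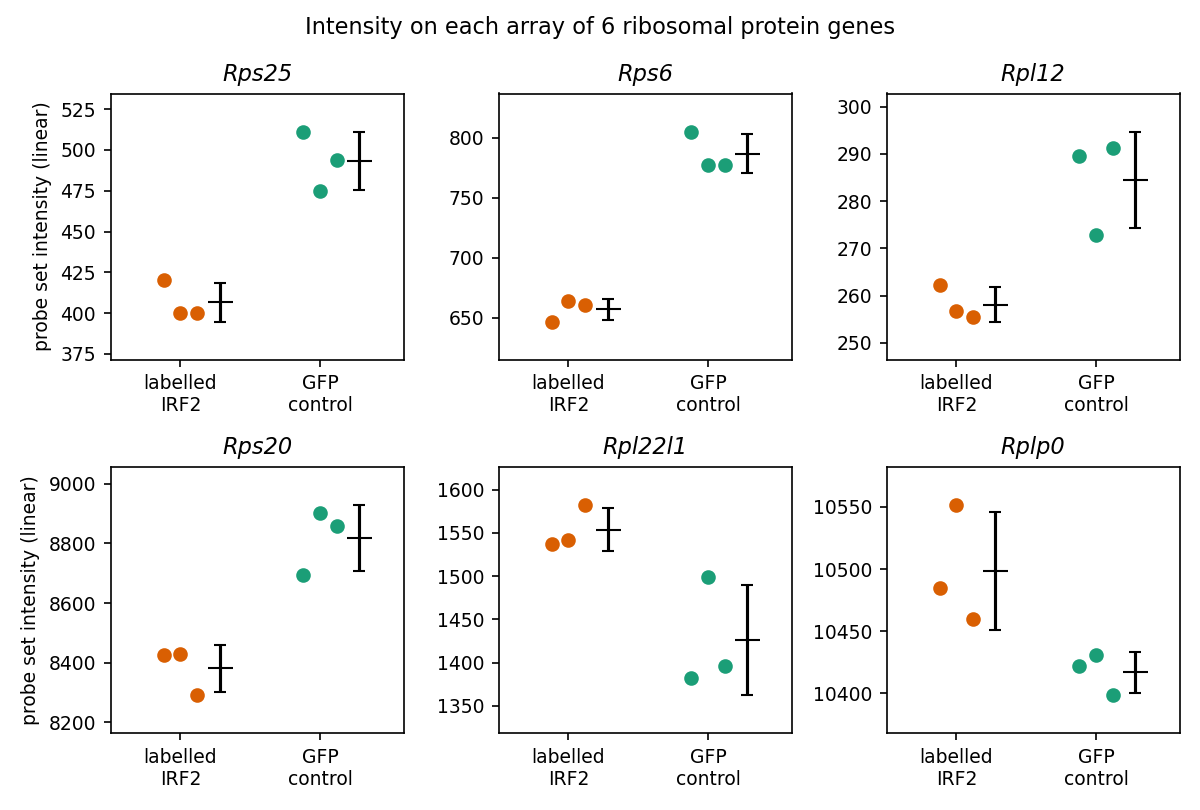
Linear probe set intensity on each of the 6 arrays for 6 members, with arrays labelled IRF2 left of GFP control arrays in each panel; bars give the mean and SD (n = 3) and the vertical axes do not start at 0. The groups do not overlap in any panel, while the separation is 0.28 on the log2 scale for Rps25 and 0.011 for Rplp0.

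Among the single-symbol probe sets of the members, falls were more frequent between 100 and 5000 than over 5000. The 50 members have 106 single-symbol probe sets, of which 99 passed the filter and were tested on their own, with adjustment over 23041 probe sets. Of the 55 with a mean intensity over 5000, 3 fell and none rose, with a median log2 fold change of -0.012. Of the 15 between 1000 and 5000, 6 fell and 1 rose (median -0.050). Of the 18 between 100 and 1000, 10 fell and 1 rose (median -0.12). Over all probe sets tested, 17.2% fell and 14.0% rose; in these intensity ranges 11.6%, 32.1% and 26.3% fell, 17.4%, 25% and 19.1% rose, and the medians were 0.0043, -0.012 and -0.017. Of the 11 below 100, 3 fell and none rose (median -0.013), beside 8.92% and 9.10% of all probe sets there and a median of 0.0075. The ranges were chosen after the values were seen.

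Within single genes the picture was mixed. Of the 21 members with more than 1 probe set tested, the dimmest had the lower log2 fold change of the dimmest and the brightest in 14 and not in 7, beside 50.4% with the lower value in the dimmest among all 5902 genes with several. The split counted differences of any size. Some dimmest probe sets lay near the intensity filter. Among the 7 these were Rps6 (11.8), Rps24 (15.2) and Rpl35 (16.1), and among the 14 Rps3 (14.8) and Rps18 (13.3). In others both probe sets were bright and differed little, as in Rps29 and Rps27l of the 7 and Rps28 and Rps14 of the 14. The split alone therefore does not settle the direction within genes. Another probe set than the brightest fell in 10 of the 21 and rose in 1, beside 19.9% and 14.9% of those 5902 genes, which can differ from the members in the number and brightness of their probe sets. The genes described next were chosen after their values were seen. For Rps24, the probe sets at mean intensities of 8153, 5343, 4150, 3893 and 241 had log2 fold changes of -0.013, -0.054, -0.061, -0.099 and -0.25, of which the last 3 passed the test (adjusted p = 0.0284, 0.0116 and 2.98e-04). Its dimmest probe set, at 15.2, gave 0.20 (adjusted p = 0.212). For Rpl41, whose brightest probe set read 11697 and differed by -0.020, those at 201 and 149 fell by 0.12 and 0.25. Rpl13a, at -0.012 in its brightest probe set, gave 0.016 at 7986 and fell by 0.058 at 3668 and by 0.12 at 1948.

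Rps3, a protein of the mRNA entry site, gave -0.027 at 6486 and -0.18 at 343 (adjusted p = 6.22e-04). Rps20 gave -0.34 and -0.23 in its probe sets at 36.8 and 34.8. Other genes ran the other way. Rpl22 rose by 0.24 in its probe set at 183 (adjusted p = 3.62e-04). Rpl7 gave -0.048 at 6504 and -0.016 at 2788, and Rps6 fell in its brighter probe set alone, the other lying near the intensity filter at 11.8. Rpl35, Rps28 and Rps29 had no probe set that passed the test.

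The brightness of a probe set depends on its sequence as well as on its transcript, and the part of the transcript that each probe set reads was not looked up here. Above an intensity of 5000, 34 of the 90 genes tested were members; 4 of these 34 were called, and 29 of the other 56 genes (51.8%). The 34 members ran from -0.073 to 0.038, and the other 56 genes from -0.16 to 0.30. What sets the relation between brightness and change was not tested. With the brightest probe set under 5000 standing for each gene, an alternative chosen after seeing the data, 10 of 26 members fell and 1 rose, with a median of -0.052, beside 19.9% and 16.5% of all genes in that fit.

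Probe sets that the annotation gives to a ribosomal protein symbol together with others were tested without naming them, a test also chosen after seeing the data. Of 110, 105 passed the filter in a fit of 27022 probe sets, where 15.7% fell and 13.0% rose. Among them 23 fell and 4 rose, with a median log2 fold change of -0.024. Of the 68 over 5000, 19 fell and 2 rose (median -0.024), with log2 fold changes from -0.26 to 0.065. Of the 13 between 1000 and 5000, 1 fell and 1 rose (median -0.017). Of the 12 between 100 and 1000, 2 fell and none rose (median -0.044). Of the 12 below 100, 1 fell and 1 rose (median -0.0013). In the same ranges, 11.6%, 32.1%, 26.3% and 8.92% of all single-symbol probe sets fell in their own fit, and 17.4%, 25%, 19.1% and 9.10% rose. Falls were therefore not more frequent in the dimmer ranges here, unlike among the single-symbol probe sets, but these ranges held few probe sets.

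**Figure D3:**
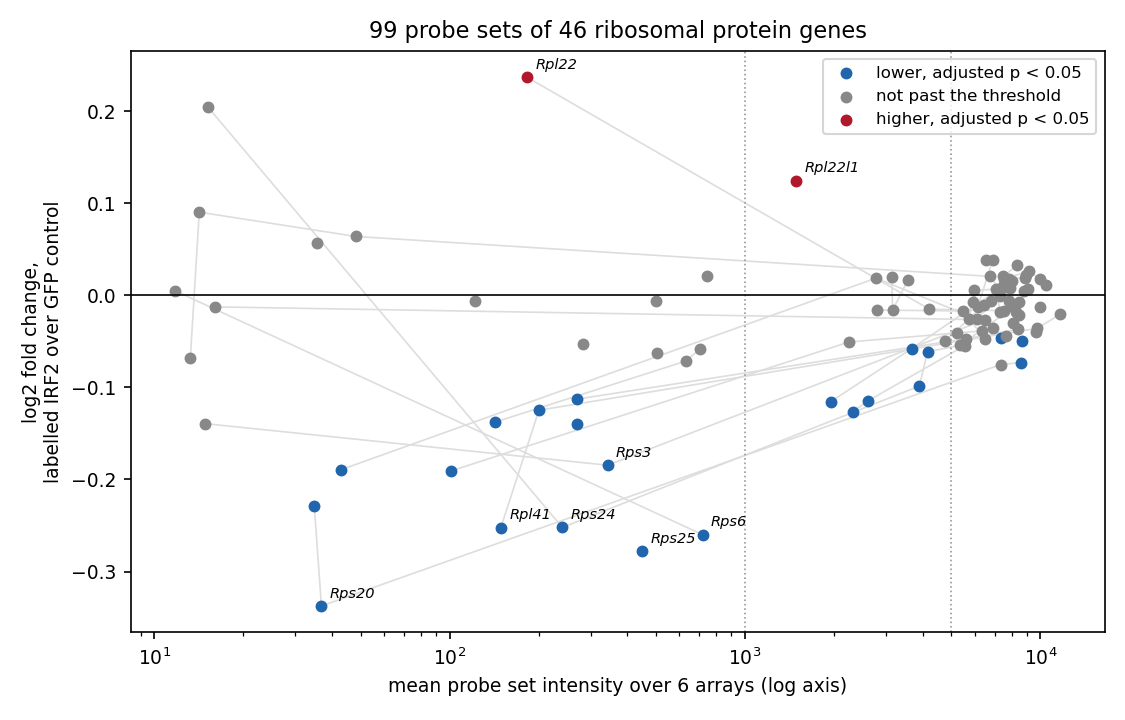
Log2 fold change, labelled IRF2 over GFP control, against mean intensity (log axis) for the 99 probe sets of the 46 members tested; grey lines join probe sets of the same gene, and dotted lines mark 1000 and 5000. The probe sets over 5000 lie close to 0, and most blue points, which fell, lie at lower intensities.

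The starts of the genes that changed most, and of Rplp0, are shown with the pyrimidine runs near them. RefSeq promoter windows of GRCm38.p6 were found for 44 of the 50 members. The capitals mark the longest run of C and T within 30 bases of the annotated start, and each stretch holds 40 bases before that start and 25 from it on, read on the gene's strand. The stretch of Rps25 lies at chr9:44407674-44407738 on the plus strand, and that of Rps6 at chr4:86857343-86857407 on the minus strand. Those of Rpl12, at chr2:32961672-32961736, Rpl22l1, at chr3:28805468-28805532, and Rplp0, at chr5:115559427-115559491, are all 3 on the plus strand.
Rps25: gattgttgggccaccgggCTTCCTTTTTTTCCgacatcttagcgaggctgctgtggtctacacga
Rps6: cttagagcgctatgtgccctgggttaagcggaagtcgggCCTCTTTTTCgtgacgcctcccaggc
Rpl12: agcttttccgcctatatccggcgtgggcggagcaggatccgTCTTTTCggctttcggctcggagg
Rpl22l1: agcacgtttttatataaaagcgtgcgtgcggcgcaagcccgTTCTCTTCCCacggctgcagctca
Rplp0: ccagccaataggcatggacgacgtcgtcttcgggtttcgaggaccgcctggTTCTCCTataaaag
The run had 14 bases in Rps25, 10 in Rps6 and in Rpl22l1, and 7 in Rpl12 and in Rplp0. Counted from 1 at the annotated start, it spans -1 to 9 in Rps6, 2 to 8 in Rpl12 and 2 to 11 in Rpl22l1. In Rps25 it lies at -22 to -9, before that start, and in Rplp0 at 12 to 18, so that neither is a tract at the annotated start. A run of at least 8 bases was found in 24 of the 44 members (54.5%), against 25.8% of 27025 genes of all kinds.

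The whole windows, from 250 bases before the start to 50 after it, were searched on both strands for GAAA, any 2 bases and GAAA, a form of the element that interferon regulatory factors bind. They were found in 5 of the 44 members (11.4%), against 3.99% of all genes. The matches are shown because IRF2 binds elements of this kind. The printed stretches, with the matching letters in capitals, lie at chr7:109519180-109519219 in Rpl27a, chr11:114668459-114668508 in Rpl38, chr9:64173351-64173400 in Rpl4 and chr7:24884397-24884446 in Rps19, all 4 on the plus strand. That of Rps7 lies at chr12:28636138-28636187 on the minus strand.
Rpl27a: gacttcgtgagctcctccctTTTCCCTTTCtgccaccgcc
Rpl38: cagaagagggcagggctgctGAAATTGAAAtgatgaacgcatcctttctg
Rpl4: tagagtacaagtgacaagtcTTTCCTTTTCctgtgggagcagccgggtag
Rps19: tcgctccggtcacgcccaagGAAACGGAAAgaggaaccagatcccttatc
Rps7: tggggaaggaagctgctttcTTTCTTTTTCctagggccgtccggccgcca
In Rpl27a, Rpl4 and Rps7 the match lies on the opposite strand, so that it reads as C and T alone on the gene's strand, as a pyrimidine tract does. None of these 5 genes passed the test, and their log2 fold changes ran from -0.040 for Rps19 to 0.0043 for Rpl38. The letters CCGGAAG, a form of the element bound by ETS factors, were found in 21 of the 44 members, or 47.7%, against 9.93% of all genes, Rps25 and Rps6 among them. Of the 20 of these that were tested, 4 were called, and 3 of the 21 tested members without it, beside 36.3% of all genes tested. A match is a run of letters and not a site.

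Genes that build the ribosome but are not part of it were examined as a further list. The median intensity of an array was 384 to 392 over biogenesis genes on the arrays labelled IRF2 and 424 to 437 on the GFP control arrays. Of 83 measured ribosome biogenesis genes, 55 fell and 2 rose, with a median log2 fold change of -0.14, beside 19.8% and 16.5% of all genes. In the range from 100 to 1000, the single-symbol ribosomal protein probe sets had a median of -0.12, with 10 of 18 that fell. Nop14, needed for the small subunit precursor, read 317, 326 and 313 on the arrays labelled IRF2 and 425, 403 and 414 on the GFP control arrays (-0.38 on the log2 scale, SE 0.03, limma adjusted p = 2.85e-07). Nob1, the endonuclease that makes the end of 18S rRNA, fell by 0.37, Tsr1, a late assembly factor of that subunit, by 0.33 and the helicase gene Ddx21 by 0.33 on the log2 scale. Of 76 mitochondrial ribosomal protein genes, 39 fell and 6 rose (median -0.086), with Mrpl12 and Mrps22 at -0.32 and -0.31. Of 40 translation factors, 17 fell and none rose (median -0.047), and Eif4h, Abce1, Eif3b and Eif6 fell by 0.16 to 0.20. No test compared these lists with the ribosomal protein genes.

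Further mRNAs with a TOP tract were few and changed unevenly. Of 24 measured, 12 of which are also translation factors, 8 fell and 1, Vim, rose, beside 19.8% and 16.5% of all genes. The snoRNA host genes Snhg8, Snhg5, Snhg1 and Gas5 fell by 0.24, 0.19, 0.19 and 0.13. Npm1, a nucleolar chaperone of ribosome assembly, fell by 0.14. Fau, which encodes a small subunit protein under another name, differed by 0.012 (adjusted p = 0.638). Myc, a transcription factor that drives ribosomal protein and biogenesis genes, read 642 ± 4.69 on the arrays labelled IRF2, against 708 ± 22.5 with GFP (SD over 3 arrays each; -0.14 on the log2 scale, SE 0.03, limma adjusted p = 9.19e-04). Of 27 TOR pathway genes, 7 rose and 6 fell (22.2%), beside 16.5% and 19.8% of all genes. In either direction 48.1% of them were called, beside 36.3% of all genes. The largest rise was in Pdcd4, an inhibitor of translation initiation, at 0.88 (SE 0.06), followed in p by the TOR inhibitor Ddit4 at 0.31 (SE 0.04), while the amino acid-sensing genes Rragc and Lamtor5 fell by 0.17 and 0.18.

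**Figure D4:**
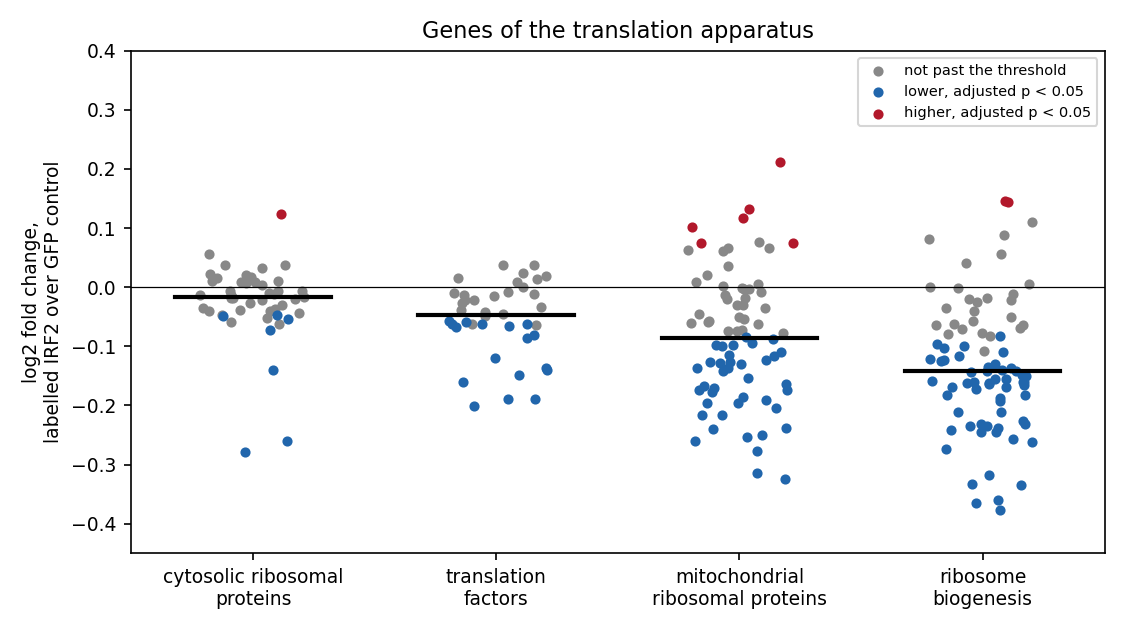
Log2 fold change, labelled IRF2 over GFP control, of each gene tested in 4 lists, spread sideways at random; black bars are medians, blue points fell, red points rose and grey points did not pass the test. The medians are -0.017 for 46 cytosolic ribosomal protein genes, -0.047 for 40 translation factors, -0.086 for 76 mitochondrial ribosomal protein genes and -0.14 for 83 biogenesis genes.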

How the data were processed

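Total RNA of 6 samples was measured, 3 in each group by the sample titles. The deposited file holds an intensity on a linear scale for each of 45101 probe sets; MAS5 is named, with no role or version, in the submitters' processing notes, and further scaling is not stated. Intensities ran from 2.59 to 14181, with no detection calls used; the number of arrays limits the precision. Symbols came from the platform's annotation in GEO (34945 of 45037 non-control probe sets had 1 symbol, 932 several, 9160 none), and all 50 members' gene numbers were found in the RefSeq table of GRCm38.p6. The brightest probe set stood for a gene, and genes with a mean intensity at or under 11.3 were left out. No scaling was added. The log2 values went into limma 3.58.1 under R 4.3.3 (group only, eBayes with trend, 4 residual degrees of freedom, two-sided, Benjamini-Hochberg over 12795 genes). In simulated data for this comparison, over 12795 genes with 200 changed, the fit called 39.1% of genes changed by 0.2 (log2), 87.7% at 0.5 and 100% at 1. In the measured data 36.3% of genes were called, far more than were changed in the simulation. The simulated shares therefore need not hold for the measured data or for the bright members. No pair of arrays held the same values throughout.

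The members and lists were chosen with earlier results of these data known. Genes were named by rule: members past the threshold, the 8 brightest, paralogues with their parents, Rpl5 (no single-symbol probe set) and Rpl11, the stalk, Rps6, Rpl13a and Rps18, up to 4 genes of each related list by p, Irf2, Myc, Fau and Rack1 (the last has none either); others were named to describe a role or after their values were seen. Alternatives were other scalings, 16 added before the log, other filters, variance models, probe set choices, the replicate block and leaving out each array. Deviations from group means of same-numbered arrays correlated at 0.072, -0.076 and -0.00077, and those of differently numbered arrays at -0.11 to 0.11. The labels do not say whether the numbers pair the arrays, and these values do not settle it.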

Additional observations from a re-analysis of the deposited data

How the results depend on the processing

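Of the results here, the fall of Rps25, Rps6 and Rpl12 kept its direction and its side of the threshold in every alternative run. Another choice of probe set could not move the fold changes of Rps25 and Rpl12, which have 1 single-symbol probe set each. The falls of Rpl27, Rpl19 and Rpl11, each under 0.06 on the log2 scale, did not keep their side of the threshold. The members that fell numbered 4 with 2% trimmed means, 3 without the intensity trend, 13 with the mean of probe sets, 22 of 99 probe sets on their own and 4 to 8 when an array was left out (4 without the replicate 3 GFP control array). Those that rose numbered 2, 0, 2, 2 and 1 to 2 in the same order, and 4 under quantile normalization. Of the 43 tested genes of the classical list, which include 1 that the rule did not take as a member, 0 rose. Chosen after seeing the data, 105 probe sets that list a member symbol beside others held 23 that fell and 4 that rose. The median of the members was 0.0014 under quantile normalization and -0.052 with probe sets under 5000, and -0.023 to -0.015 when an array was left out. That of the small subunit was -0.021 with array medians, 0.00024 with trimmed means, 0.0038 under quantile normalization, -0.031 with the mean of probe sets, -0.056 with probe sets under 5000 and -0.011 to -0.0050 without an array; that of the large subunit was -0.030, -0.0089, -0.0074 and, without _x_at and _s_at probe sets, -0.033, -0.034 with probe sets under 5000 and -0.030 to -0.021 without an array. Translation factors that fell numbered 11 with trimmed means, 8 without the trend and 8 to 17 without an array (8 without the replicate 3 GFP control array, 10 without the replicate 2 array labelled IRF2). Mitochondrial genes that rose numbered 2 without the trend and 2 to 7 without an array (2 without the replicate 2 array labelled IRF2). Further TOP mRNAs that fell numbered 5 without the trend, 5 with the mean of probe sets and 5 to 8 without an array (5 without the replicate 2 array labelled IRF2 or the replicate 3 GFP control array), and 0 rose with array medians, without the trend and with probe sets under 5000. Small changes turned sign: Rps10 gave -0.0027 with array medians, -0.033 with the mean of probe sets and -0.0041 to 0.017 without an array (-0.0036 without the replicate 1 GFP control array); Rpl38 gave -0.0052 with array medians and -0.0022 to 0.0093 without an array; Rps27 gave 0.0053 with trimmed means, -0.020 to 0.0031 without an array (0.0024 without the replicate 2 array labelled IRF2); Rps2 gave 0.0032, Rpl13a 0.020 and Rps18 0.0044 under quantile normalization; Rpl22 gave 0.068 and Rps18 0.014 with the mean of probe sets; Rpl13a gave 0.016 without _x_at and _s_at probe sets, and Rps18 gave 0.064 with probe sets under 5000. The cause of these shifts was not tested. With the replicate number as a block, 6 members fell and 1 rose, and 2537 of all genes fell and 2141 rose.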
